A study of Mus musculus with 56 samples.

Results

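The genes described here, read in mouse heart, belong to the known response to glucocorticoids. They are Nr3c1, which encodes the glucocorticoid receptor, and Fkbp5, Tsc22d3, Zbtb16, Cdkn1a, Sgk1 and Lcn2, whose transcription the hormone-bound receptor is known to raise in several tissues. These 7 genes were taken by name, with earlier results of these data known, from 22864 genes listed in the deposited table. All 7 had reads in each of the 56 libraries, and all 7 were among the 13869 genes whose mean level reached 1 TPM and that were therefore tested. TPM stands here for reads per base of exon length, brought to an equal sum across libraries.

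Hearts were collected from female C57BL/6J mice, an inbred strain, at 9 weeks of age. All mice lived under 12 h of light and 12 h of dark and had spent 7 days on daytime-restricted feeding (DRF, food in the light phase) or nighttime-restricted feeding (NRF, food in the dark phase), NRF being the control because mice feed at night. Polyadenylated RNA was sequenced at zeitgeber time (ZT, hours after lights on) 0, 4, 8, 12, 16, 20 and 24, with 4 libraries per regimen and ZT, 14 groups in all. Food was restricted in every group, so freely fed mice are not analysed here, and neither are hormone levels or mice without the receptor. The labels number the replicates and say nothing of separate animals, so p-values measure the spread between these libraries alone.

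Glucocorticoids, chiefly corticosterone in mice, are adrenal steroids with a daily rhythm that rises ahead of the active phase, and a meal given at a fixed time in the rest phase is known to add a rise ahead of the meal. The receptor waits in the cytoplasm in a chaperone complex with HSP90 and FKBP proteins, binds the hormone, enters the nucleus and binds DNA at paired copies of a short motif, AGAACA and its reverse complement, set 3 bases apart. In the heart the receptor is known for its part in contractile function and in the use of fuels, and it also acts in resident fibroblasts, vessels and immune cells.

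The promoters of the members were searched for exact copies of that motif, since they are among the places where the receptor could act on these genes. Sites that depart from its letters were not counted. RefSeq windows (GRCm38.p6) from 250 bases before to 50 bases after a transcript start were at hand for 5 members, namely 1 for Fkbp5, 3 for Tsc22d3, 2 for Cdkn1a, 6 for Sgk1 and 1 for Lcn2. Zbtb16 and Nr3c1 had none. The full motif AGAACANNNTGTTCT, in which N is any base, was in 3 of 32851 such windows genome-wide (0.00913%), and 1 of the 3 belongs to Sgk1, where it begins 189 bases upstream of the start. The single hexamer AGAACA, on either strand, was in 18.97% of all windows. It was also in Tsc22d3, 185 bases upstream, and in 2 further Sgk1 windows, 195 and 13 bases upstream. The clock motif CACGTG, bound by CLOCK and BMAL1, was in 7.15% of all windows and lay 169 bases upstream of the Fkbp5 start and 246 bases upstream of the same Sgk1 start, overlapping another AGAACA at 242. The motif TTATGNAA, bound by clock output factors of the PAR bZIP family, was in 3.39% of all windows and in none of the members'. The windows of Cdkn1a and Lcn2 held none of these letters. The upstream 250 bases of 1 window with a match are shown for each of 3 members, for Sgk1 the one with the full motif, 5′ to 3′ along the gene's strand, with every match in capitals:
Sgk1, chr10:21993640-21993889, plus strand: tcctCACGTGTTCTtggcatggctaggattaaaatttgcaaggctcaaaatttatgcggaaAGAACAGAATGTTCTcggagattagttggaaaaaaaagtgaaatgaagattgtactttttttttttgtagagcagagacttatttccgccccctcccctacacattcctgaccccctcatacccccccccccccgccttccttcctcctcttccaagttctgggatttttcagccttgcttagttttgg
Tsc22d3, chrX:140600523-140600772, minus strand: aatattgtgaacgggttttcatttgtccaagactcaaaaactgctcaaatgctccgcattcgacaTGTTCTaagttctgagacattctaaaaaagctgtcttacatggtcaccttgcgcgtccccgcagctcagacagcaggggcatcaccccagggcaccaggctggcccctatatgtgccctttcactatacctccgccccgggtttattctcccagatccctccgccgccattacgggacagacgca
Fkbp5, chr17:28486150-28486399, minus strand: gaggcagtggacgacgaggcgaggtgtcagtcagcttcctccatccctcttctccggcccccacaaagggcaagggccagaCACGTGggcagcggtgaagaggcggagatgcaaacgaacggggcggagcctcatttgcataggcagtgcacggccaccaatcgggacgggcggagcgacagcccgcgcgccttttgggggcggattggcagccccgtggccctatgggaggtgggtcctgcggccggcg
A match describes letters in a window, and a window without one says nothing about binding elsewhere, since many receptor sites lie far from promoters.

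Recovered reads ranged from 29.5 to 53.4 M (mega) per library, with a median of 37.7 M. Mitochondrially encoded genes took 21.6 ± 1.46% (SD) of the reads in 28 DRF libraries and 20.3 ± 1.56% in 28 NRF libraries, and the median tested gene stood 0.05 lower under DRF on the log2 scale. Summed cardiomyocyte markers stood between 19336 and 31927 TPM, so the tissue held heart muscle in every library. The sum of 5 atrial markers varied from 94.2 to 5436 TPM, with a median of 1785 under DRF and 604 under NRF. None of the 5 differed in rhythm between regimens, and their part in the results that follow was not tested. In bulk tissue, fewer cells of a type and less RNA per cell cannot be told apart.

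Levels of the members spanned more than an order of magnitude. Over the 28 NRF libraries, Tsc22d3 averaged 60.4 ± 29.6 TPM, Sgk1 43.2 ± 7.38, Nr3c1 36.6 ± 2.97 and Cdkn1a 24.1 ± 7.81 (SD). Zbtb16 averaged 19.9 ± 18.6, Fkbp5 6.86 ± 4.44 and Lcn2 2.80 ± 0.9498. The order was the same under DRF, and the ranges of each pair of neighbours in it overlapped under both regimens. Zbtb16 and Fkbp5 had the widest spread relative to their means and Nr3c1 the narrowest. Lcn2 rested on 44 to 308 reads per library, so its values carry the most counting noise, while the lowest library of any other member held 244 reads. Reads of Cdkn1a could not be separated from those of AC167363.2, a predicted transcript on the opposite strand that shares 273 exon bases with it, because the library kit does not mark strand.

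**Figure D1:**
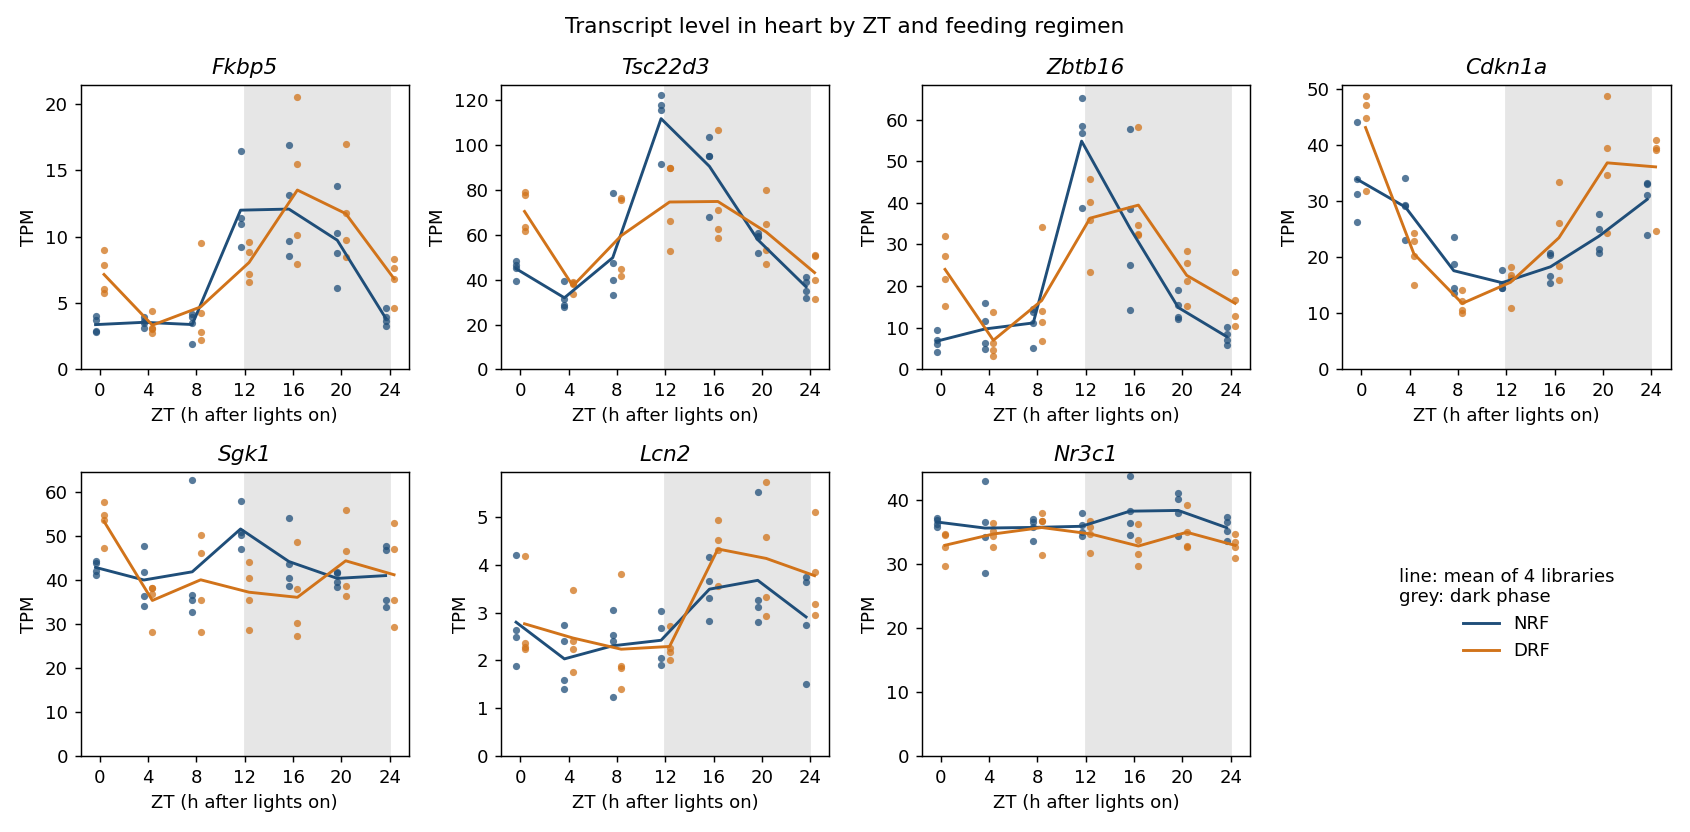
Transcript level (TPM, from 0) of the 7 members against ZT in hours, with 1 point per library, lines through the means of 4 libraries, NRF in blue, DRF in orange and the dark phase in grey. The means of Zbtb16 peaked at 54.8 TPM for NRF (ZT12) and 39.5 TPM for DRF (ZT16), whereas Nr3c1 stayed between 28.6 and 43.7 TPM throughout.

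The first question was which members kept a daily rhythm under each regimen. Fkbp5, Tsc22d3, Zbtb16, Cdkn1a and Lcn2 were rhythmic under both, and Sgk1 and Nr3c1 passed the test under neither. The test was limma's F test of a 24-h cosine and sine on log2(TPM + 1) in the 28 libraries of a regimen, with a Benjamini-Hochberg adjusted p under 0.05 over all tested genes. Thus 5 of 7 members passed under NRF, where 37.3% of all tested genes did, and 5 of 7 under DRF, where 32.4% did. Both tests were passed by 5 of 7 members and by 17.7% of all genes.

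The receptor gene was flat. Nr3c1 group means lay between 32.8 and 35.7 TPM under DRF and between 35.6 and 38.4 TPM under NRF, with fitted amplitudes (the distance from the fitted mean to the peak) of 0.04 and 0.06 on the log2 scale. Its adjusted p was 0.474 under DRF and 0.297 under NRF (limma).

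Fkbp5 encodes FKBP51, a co-chaperone that lowers the hormone affinity of the receptor and so closes a feedback loop. Under NRF its level was low at the end of the night and through the day, with successive means of 3.38, 3.55, 3.38, 12.0, 12.1, 9.73 and 3.88 TPM every 4 h from ZT0 onward. Under DRF the means were 7.15, 3.33, 4.71, 8.05, 13.5, 11.7 and 6.84 TPM. The daytime minimum was alike under both regimens, and the highest group was ZT16 in both. Under DRF the decline ran on past lights on. The fitted peak stood at ZT15.7 under NRF and ZT17.5 under DRF, and the amplitudes were 0.97 and 0.86 (limma, adjusted p = 5.55e-08 and 7.13e-06).

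Tsc22d3 encodes GILZ, a leucine zipper protein that carries part of the anti-inflammatory action of glucocorticoids. Its NRF means ran 44.8, 31.9, 49.7, 112, 90.3, 57.7 and 36.7 TPM every 4 h from ZT0 onward. Its DRF means ran 70.3, 37.2, 59.5, 74.5, 74.7, 61.1 and 43.1 TPM over the same times. The NRF course had a single crest at lights off, and the DRF course was flatter, with a low crest in the early night and a further high value at ZT0. Its amplitude was 0.81 under NRF and 0.38 under DRF (limma, adjusted p = 2.54e-08 and 0.0161), with fitted peaks at ZT14.6 and ZT15.4. The DRF rhythm did not pass without ZT4 (adjusted p = 0.188), ZT12 (0.0517), ZT16 (0.0680) or ZT24 (0.0527), nor without replicate 1 (0.0929) or 3 (0.0620) of every group.

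Zbtb16 encodes PLZF, a zinc-finger transcription factor, and it had the widest daily range of the members by fold. Its NRF means ran 6.79, 9.73, 11.2, 54.8, 33.9, 14.9 and 7.89 TPM from ZT0 to ZT24, an 8.08-fold span between the highest and the lowest group. Its DRF means ran 24.03, 7.01, 16.6, 36.3, 39.5, 22.6 and 15.9 TPM, a 5.63-fold span. The peak moved from ZT13.9 to ZT16.1, and the amplitude was 1.26 under NRF and 1.01 under DRF (limma, adjusted p = 1.08e-06 and 0.000336).

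Cdkn1a encodes p21, an inhibitor of cyclin-dependent kinases that p53 also induces, and unlike the other rhythmic members it was low in the evening and high around lights on. Its NRF means ran 33.9, 29.0, 17.6, 15.5, 18.3, 23.8 and 30.3 TPM from ZT0 to ZT24. Its DRF means ran 43.2, 20.6, 11.8, 15.6, 23.5, 36.9 and 36.1 TPM. Under DRF it was thus lowest at ZT8 and under NRF at ZT12. The fitted peak moved earlier, from ZT0.43 to ZT21.7, and the amplitude was 0.52 under NRF and 0.84 under DRF (limma, adjusted p = 3.36e-07 and 1.18e-07).

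Sgk1 encodes a serum- and glucocorticoid-regulated kinase that acts on ion channels and transporters. It had no 24-h rhythm that passed the test, with amplitudes of 0.11 under NRF and 0.16 under DRF (limma, adjusted p = 0.243 and 0.216). Its highest groups were ZT12 under NRF, with 47.1, 51.1, 58.1 and 50.4 TPM, and ZT0 under DRF, with 47.4, 54.9, 57.7 and 53.7 TPM. The 4 DRF libraries of ZT24, the same clock time as ZT0, read 29.5, 52.98, 35.5 and 47.1 TPM and averaged 41.3 TPM, below the 44.4 TPM of DRF ZT20.

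Lcn2 encodes lipocalin, a secreted protein of neutrophils and inflamed tissue that binds bacterial iron carriers. It was highest in the dark phase under both regimens, with means of 3.49 and 3.67 TPM at ZT16 and ZT20 under NRF and 4.33 and 4.13 TPM under DRF, against minima of 2.03 TPM (NRF ZT4) and 2.23 TPM (DRF ZT8). The fitted peaks stood at ZT18.4 and ZT19.1 and the amplitudes were 0.31 and 0.40 (limma, adjusted p = 0.0132 and 0.00239). The NRF rhythm did not pass without ZT4 (adjusted p = 0.0589), ZT16 (0.0703), ZT20 (0.0670) or replicate 3 of every group (0.101), and the DRF rhythm did not pass without replicate 1 of every group (0.0580).

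The second question was how far the rhythms followed the food, whose offer had moved by 12 h. The fitted peaks moved by less than 3 h. Fkbp5 peaked 1.85 h later under DRF (95% interval 0.711 to 3.00) and Zbtb16 2.22 h later (0.629 to 3.80), whereas Cdkn1a peaked earlier, at -2.77 h (-4.01 to -1.52). The shifts of Tsc22d3, 0.80 h (-1.35 to 2.95), and Lcn2, 0.69 h (-1.63 to 3.00), had intervals that held 0. All 5 shifts were within the 0 to 4 h that counts as phase locked, as were those of 52.0% of the 2457 genes that oscillated under both regimens, and none lay in the phase-inverted range of 8 to 12 h, which held 17.7% of those genes. For scale, the clock genes Arntl, Dbp, Per2 and Nr1d1 peaked 0.779 to 2.14 h earlier under DRF. The fatty acid genes Cpt1a, Lipe, Ehhadh and Ucp3 shifted by 8.29 to 9.55 h. The paper already reports these 4 as phase inverted in heart, so they serve as a reference and are not a new result.

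**Figure D2:**
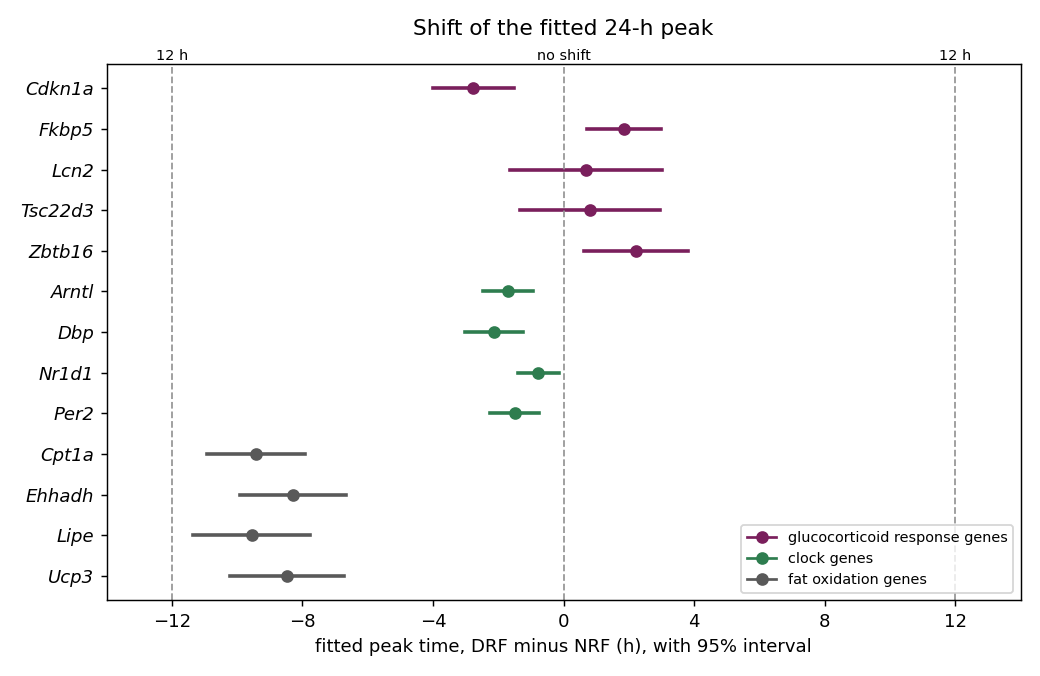
Difference in fitted peak time (DRF minus NRF, hours) with its 95% interval for the 5 members rhythmic under both regimens (purple), 4 clock genes (green) and 4 genes of fat use (grey). The members lie between -2.77 and 2.22 h, the clock genes between -2.14 and -0.779 h and the fat genes beyond -8 h. Fkbp5 and Zbtb16 peaked later under DRF, whereas all 4 clock genes peaked earlier. The fat genes are a reference that the paper reports as phase inverted in heart.

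The rhythm itself differed between regimens in 4 of 7 members by clock time, where 27.7% of all tested genes did (limma F test of both interaction terms in 56 libraries). These were Cdkn1a (adjusted p = 0.000485), Tsc22d3 (0.0184), Fkbp5 (0.0292) and Zbtb16 (0.0492). For Tsc22d3 the amplitude was lower under DRF by an interval that left out 0, with a difference of -0.43 on the log2 scale (95% interval -0.69 to -0.17), and for Cdkn1a it was higher, by 0.33 (0.12 to 0.53). The amplitudes of Fkbp5 and Zbtb16 differed by -0.11 (-0.41 to 0.18) and -0.26 (-0.72 to 0.21), so for them it was the peak time that stood apart. Lcn2, Sgk1 and Nr3c1 did not pass, with adjusted p of 0.752, 0.0917 and 0.209. Only the Cdkn1a difference held in each of 75 alternative settings. That of Zbtb16 was lost without any one of 35 of the 56 libraries (adjusted p from 0.0501 to 0.0899), with a pseudocount of 0.1 TPM (0.0512), with no filter on low values (0.0725), after rescaling by the median of ratios (0.0577), without mitochondrial genes (0.0518) and on the deposited values (0.0547). That of Fkbp5 was lost without NRF ZT12 replicate 1 (0.0704) or replicate 3 (0.05001). That of Sgk1 passed without DRF ZT24 replicate 1 (0.0426), without ZT8 (0.0219) or without replicate 1 of every group (0.0239). Omitting 1 replicate number from every group lost Fkbp5 for numbers 1, 2 and 4 (adjusted p from 0.0697 to 0.153), Tsc22d3 for 2, 3 and 4 (0.0740 to 0.201) and Zbtb16 for each (0.0945 to 0.220). Without ZT12 the adjusted p was 0.363 for Fkbp5, 0.211 for Tsc22d3 and 0.290 for Zbtb16, and without ZT0 it was 0.201, 0.0537 and 0.303. Fkbp5 was also lost without ZT24 (0.120), Tsc22d3 without ZT16 (0.0522) and Zbtb16 without ZT16 (0.0605), ZT20 (0.0595) or ZT24 (0.121).

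DRF times were then moved by 12 h, so that hours counted from the offer of food. A clear rhythm that keeps its ZT is bound to differ in this test, so it restates the small shifts above. The rhythm differed in 5 of 7 members, where 41.5% of all tested genes did. The adjusted p was 4.19e-14 for Cdkn1a, 3.75e-13 for Fkbp5, 6.23e-10 for Zbtb16, 8.99e-10 for Tsc22d3 and 2.37e-05 for Lcn2 (limma), and each of these held in every alternative. Sgk1 and Nr3c1 both had an adjusted p of 0.707. The fitted peaks of these 5 genes were thus closer in hours after lights on than in hours after the offer of food.

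The third question was at which times of day the level differed between regimens. Most calls came at ZT0, lights on, when DRF mice were about to be fed and NRF mice had just lost their food, and none at ZT24, the same clock time. At ZT0, 3 of 7 members were higher under DRF, where 11.3% of all tested genes passed and 3.03% were higher. At ZT20 it was 1 of 7, where 14.8% passed and 3.4% were higher. No member passed at ZT4, ZT8, ZT12, ZT16 or ZT24, where 0.447%, 0.389%, 7.74%, 6.94% and 8.89% of genes did. Without limma's adjustment, the p of a further 7 of these 49 differences was under 0.05.

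At ZT0, Zbtb16 read 27.1, 32.0, 15.3 and 21.7 TPM under DRF against 9.51, 4.31, 6.22 and 7.10 TPM under NRF. Every DRF library lay above every NRF library, and the DRF mean was 3.54-fold higher (log2 difference 1.68, SE 0.38, adjusted p = 0.00219, limma). Fkbp5 read 8.99, 7.85, 5.72 and 6.04 TPM against 3.76, 2.80, 4.06 and 2.89 TPM. Again the groups did not overlap, and the ratio was 2.12 (log2 0.89, SE 0.26, adjusted p = 0.0191). Tsc22d3 read 63.2, 77.7, 78.8 and 61.4 TPM against 45.3, 39.3, 46.5 and 48.2 TPM. It too stood apart in all libraries, at a ratio of 1.57 (log2 0.63, SE 0.20, adjusted p = 0.0344). The Fkbp5 call was lost without DRF ZT0 replicate 1 (adjusted p = 0.0795) or replicate 2 (0.0511), and the Tsc22d3 call without any of 6 of the 8 libraries, replicates 1 to 3 of each regimen (0.0514 to 0.0901) or with no filter on low values (0.0518), with its sign kept. Omitting 1 replicate number from every group lost Zbtb16 for number 2 (adjusted p = 0.0521), Fkbp5 for 1, 2 and 4 (0.0723 to 0.141) and Tsc22d3 for 2 and 3 (0.191 to 0.197).

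Sgk1 at ZT0 also had every DRF library (47.4 to 57.7 TPM) above every NRF library (41.2 to 44.4 TPM), but its log2 difference of 0.31 did not pass (adjusted p = 0.289). It passed in a fit of the 8 libraries of ZT0 alone (0.0386). At ZT24, the clock time of ZT0 at the end of the series, groups stood apart for Zbtb16, with 15.9 against 7.89 TPM (log2 0.89, adjusted p = 0.131), and for Fkbp5, with 6.84 against 3.88 TPM (0.67, adjusted p = 0.0982), without passing. Fkbp5 passed at ZT24 in a fit of its 8 libraries alone (0.0440). Tsc22d3 had overlapping groups at ZT24, with 43.1 against 36.7 TPM (log2 0.20, adjusted p = 0.576).

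At ZT12, the clock time at which NRF mice were about to be fed, Fkbp5, Tsc22d3, Zbtb16 and Sgk1 had log2 differences of -0.51, -0.60, -0.60 and -0.47, below 0 under every scaling, and none passed. Tsc22d3 read 52.7, 66.0, 89.5 and 89.7 TPM under DRF and 91.2, 115, 118 and 122 TPM under NRF. The groups did not overlap, yet the log2 difference of -0.60 fell just short (adjusted p = 0.0579, limma), and it passed without DRF ZT12 replicate 4 (0.0381) or among genes averaging 5 TPM or more (0.0486). Sgk1 read 28.8, 35.5, 40.6 and 44.3 TPM under DRF against 47.1, 51.1, 58.1 and 50.4 TPM under NRF, also apart, with a log2 difference of -0.47 (adjusted p = 0.0918), and it passed without replicate 4 of every group (0.0410). The median over the 7 members was -0.47 at ZT12 and 0.34 at ZT0, against -0.06 and -0.05 over all tested genes.

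Cdkn1a passed at ZT20 alone, though at ZT0 it also passed without replicate 1 of every group (adjusted p = 0.0255 in place of 0.282). It read 24.4, 39.5, 48.8 and 34.8 TPM under DRF and 20.8, 25.1, 27.7 and 21.4 TPM under NRF. Replicate 1 of DRF fell within the NRF range and the other DRF libraries lay above it, with a ratio of 1.55 (log2 0.58, SE 0.20, adjusted p = 0.0414). Mitochondrial genes took 22.3 to 24.7% of the reads in these DRF libraries and 19.3 to 20.4% in the NRF libraries, and the call held without those genes (adjusted p = 0.0120). This call was lost without any of 6 of the 8 libraries, DRF replicates 2, 3 and 4 and NRF replicates 1, 2 and 4 (adjusted p from 0.0547 to 0.169), with no filter on low values (0.0638) in a fit of the 8 libraries of ZT20 alone (0.0653) and without replicate 2, 3 or 4 of every group (0.127 to 0.172).

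The balance of all genes depended on scaling, though no member difference that passed changed sign with it. Of the genes that passed, the share that was higher under DRF went from 26.8% to 46.6% at ZT0, from 16.4% to 44.3% at ZT12 and from 23.0% to 50.6% at ZT20 when libraries were rescaled by the median of their ratios to a common reference. At ZT16 it went from 9.56% to 48.0%, at ZT8 from 24.1% to 47.7% and at ZT4 from 74.2% to 54.7%.

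**Figure D3:**
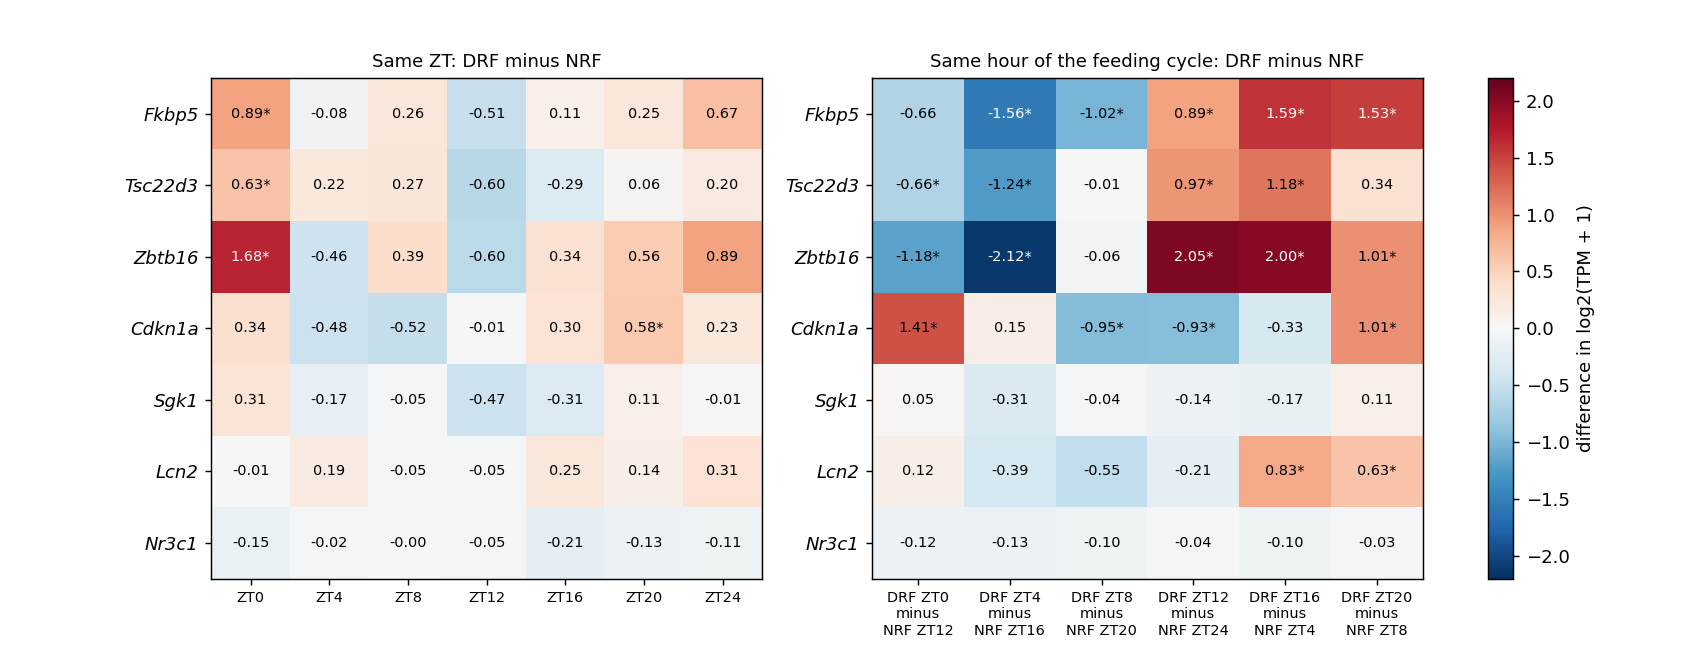
Difference in log2(TPM + 1), DRF minus NRF, for each member at the same ZT (left) and at the same hour of the feeding cycle (right), in colour from blue (lower under DRF) to red (higher), with a star where the limma adjusted p was under 0.05. The left panel has 4 stars of 49 and the right panel 20 of 42, with values from -2.12 to 2.05, both for Zbtb16.

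The fourth question set both regimens at the same hour of the feeding cycle, so that a DRF group was compared with the NRF group 12 h of ZT away. These contrasts reuse the libraries of the comparisons at the same ZT. Here 20 of 42 differences passed. Fkbp5, Zbtb16 and Tsc22d3 were all lower under DRF 4 h into feeding and all higher under DRF at the start of the fast and 4 h into it. Of 7 members, 3 passed for DRF ZT0 against NRF ZT12 (6.26% of all genes), 3 for DRF ZT4 against NRF ZT16 (6.47%) and 2 for DRF ZT8 against NRF ZT20 (5.56%). In the fast, 4 passed for DRF ZT12 against NRF ZT24 (5.18%), 4 for DRF ZT16 against NRF ZT4 (22.9%) and 4 for DRF ZT20 against NRF ZT8 (24.1%).

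As feeding began, the transcripts of Zbtb16 and Tsc22d3 were lower in DRF mice than in NRF mice, while Cdkn1a was higher. Cdkn1a read 31.9, 47.2, 48.8 and 44.8 TPM at DRF ZT0 against 17.7, 15.3, 14.5 and 14.5 TPM at NRF ZT12. All DRF libraries lay above all NRF libraries, at a ratio of 2.79 (log2 1.41, SE 0.20, adjusted p = 2.95e-06, limma). Zbtb16 differed by -1.18 (adjusted p = 0.0494) and Tsc22d3 by -0.66 (0.0404). Both had groups that did not overlap, but the Zbtb16 call was lost without any of 7 of the 8 libraries (adjusted p from 0.0502 to 0.133) and the Tsc22d3 call without any of 6 of the 8 (0.0541 to 0.132). The Zbtb16 call was also lost under 5 changes of pseudocount, filter or scaling (0.0594 to 0.0704), and the Tsc22d3 call with no filter on low values (0.0581). Atrial markers stood apart in this contrast, with sums of 2270 to 5436 TPM at DRF ZT0 and 189 to 1630 TPM at NRF ZT12, and their part in it was not tested. Sgk1 was at the same level in both groups, 53.4 and 51.7 TPM, with a log2 difference of 0.05 (SE 0.18, adjusted p = 0.916).

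In the middle of feeding the contrast was wider for Zbtb16, Fkbp5 and Tsc22d3, while Cdkn1a stood at 20.6 TPM against 18.3 TPM (log2 0.15, adjusted p = 0.761, limma). Zbtb16 read 13.8, 3.28, 4.62 and 6.28 TPM at DRF ZT4 against 38.6, 57.8, 14.4 and 25.01 TPM at NRF ZT16. The groups were apart by little, since the highest DRF library was near the lowest NRF library, and the ratio of means was 0.206 (log2 -2.12, SE 0.38, adjusted p = 0.000129). Fkbp5 read 4.44, 3.06, 2.75 and 3.09 TPM against 13.2, 16.9, 8.54 and 9.66 TPM, well apart (log2 -1.56, adjusted p = 4.41e-05). Tsc22d3, at 33.4 to 39.1 TPM against 67.7 to 103 TPM, was also well apart (-1.24, adjusted p = 3.40e-05). In the last hours of feeding, DRF ZT8 against NRF ZT20, Fkbp5 (-1.02, adjusted p = 0.0129) and Cdkn1a (-0.95, 0.00239) were lower. The Fkbp5 groups overlapped there through DRF ZT8 replicate 3 at 9.53 TPM, and the call was lost without any of 3 libraries (adjusted p from 0.0687 to 0.0915).

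In the fast, Zbtb16, Tsc22d3 and Fkbp5 had differences above 0 at each time, while Cdkn1a went from below 0 to above it. At DRF ZT12 against NRF ZT24, Zbtb16 (2.05, adjusted p = 0.000335), Tsc22d3 (0.97, 0.00163) and Fkbp5 (0.89, 0.0340) were higher and Cdkn1a was lower (-0.93, 0.00207). At DRF ZT16 against NRF ZT4, Zbtb16 (1.995, adjusted p = 0.000149), Fkbp5 (1.59, 1.71e-05), Tsc22d3 (1.18, 4.30e-05) and Lcn2 (0.83, 0.00405) were higher. Lcn2 read 4.94, 4.31, 3.55 and 4.50 TPM against 2.73, 2.40, 1.41 and 1.59 TPM, so that its groups did not overlap. At DRF ZT20 against NRF ZT8, Fkbp5 (1.53, adjusted p = 5.39e-05), Cdkn1a (1.01, 0.000299), Zbtb16 (1.01, 0.0453) and Lcn2 (0.63, 0.0269) were higher. Single libraries decided some of these calls, namely 5 of 8 for Fkbp5 at DRF ZT12 (adjusted p from 0.0558 to 0.124 without each), 5 of 8 for Zbtb16 at DRF ZT20 (0.0707 to 0.170) and 3 of 8 for Lcn2 at DRF ZT20 (0.0747 to 0.117). With no filter on low values the adjusted p was 0.0518 for Fkbp5 at DRF ZT12 and 0.0685 for Zbtb16 at DRF ZT20. Without NRF ZT8 replicate 4, Tsc22d3 passed at DRF ZT20 (log2 0.58, adjusted p = 0.0495). Likewise Lcn2 passed at DRF ZT8 without DRF ZT8 replicate 3 (0.0407), Nr3c1 at DRF ZT16 without NRF ZT4 replicate 1 (0.0423) and Cdkn1a at DRF ZT16 without replicate 1 of every group (0.0419). Calls that no single library decided could still be lost when a replicate number was omitted from every group, namely Zbtb16 at DRF ZT4 (number 2, 0.0511), Cdkn1a at DRF ZT8 (number 2, 0.0655), Tsc22d3 at DRF ZT12 (number 3, 0.0748) and Lcn2 at DRF ZT16 (number 4, 0.0800). Marker sums of other cells also stood apart in some of these contrasts. Endothelial markers summed to 350 to 445 TPM at DRF ZT8 against 457 to 519 TPM at NRF ZT20, and to 364 to 421 TPM at DRF ZT16 against 468 to 664 TPM at NRF ZT4. Inflammation genes summed to 41.4 to 44.0 TPM at DRF ZT16 against 51.3 to 61.9 TPM at NRF ZT4, and fibroblast markers to 437 to 537 TPM at DRF ZT12 against 371 to 433 TPM at NRF ZT24. Mitochondrial genes stood apart as well, with 22.3 to 24.7% of the reads at DRF ZT20 against 16.9 to 21.2% at NRF ZT8, and 20.8 to 22.5% at DRF ZT8 against 19.3 to 20.4% at NRF ZT20, and the 4 and 2 member calls of these contrasts held when those genes were left out. The part of the marker sums in the results was not tested. Among all genes, calls in the last 2 contrasts were mostly lower under DRF by TPM (15.4% and 13.1% higher), but 45.1% and 50.6% were higher after rescaling by the median of ratios.

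The libraries of a group did not always move together. At DRF ZT8, replicate 3 held 9.53 TPM of Fkbp5 and 34.1 TPM of Zbtb16, while the other libraries held 2.22 to 4.26 and 6.74 to 14.03 TPM. Tsc22d3 was high in replicates 3 and 4 there, at 76.3 and 75.4 TPM, against 41.5 and 44.8 TPM. At DRF ZT16, replicate 1 was the highest of its group for Fkbp5 (20.5 TPM), Tsc22d3 (107 TPM), Zbtb16 (58.1 TPM) and Cdkn1a (33.4 TPM). It was also the highest for Sgk1 (48.7 TPM) and Lcn2 (4.94 TPM), though not for Nr3c1. That library had the most reads of all, 53.4 M.

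Markers of other cells stood high in some single libraries. At DRF ZT0, replicate 1 held 4.18 TPM of Lcn2, against 2.23 to 2.36 TPM in the others. It also held the highest sum of neutrophil markers of all libraries, 107 TPM, in a range of 5.13 to 107. The highest Lcn2 of all, 5.72 TPM in DRF ZT20 replicate 3, came with the lowest neutrophil sum under DRF, 6.64 TPM. NRF ZT20 replicate 3, with 5.51 TPM of Lcn2, had a neutrophil sum of 17.8 TPM. At NRF ZT8, replicate 4 held 62.9 TPM of Sgk1 and 78.6 TPM of Tsc22d3, against 32.8 to 36.6 and 33.3 to 47.3 TPM, and it held the highest sum of inflammation genes, 78.9 TPM, in a range of 38.2 to 78.9. It also held the highest sum of fibroblast markers, 606 TPM, in a range of 347 to 606, with 160 TPM of adipocyte and 3562 TPM of atrial markers and 16.9% mitochondrial reads. Their part in these values was not tested.

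ZT24 repeats the clock time of ZT0 and asks whether the cycle closed. No member differed between ZT24 and ZT0 in 14 tests with limma's adjusted p, against 0.469% of genes under DRF and 0.0577% under NRF, and 2 did at an unadjusted p under 0.05, both under DRF. A fit of the recovered reads with limma voom gave none either. Tsc22d3 read 31.1, 50.5, 39.6 and 51.0 TPM at ZT24 and 63.2, 77.7, 78.8 and 61.4 TPM at ZT0. These groups did not overlap (log2 -0.71, SE 0.20, unadjusted p = 0.00105, adjusted p = 0.103, limma), and the difference passed after rescaling by the median of ratios (adjusted p = 0.0439). Sgk1 was lower by -0.40 (unadjusted p = 0.0316).

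The mean level over the day differed in Nr3c1 alone. Its 28 DRF libraries averaged 34.1 ± 2.41 TPM and its 28 NRF libraries 36.6 ± 2.97 TPM (SD), with ranges of 29.6 to 39.3 and 28.6 to 43.7 that largely overlapped. The log2 difference of -0.09 (SE 0.03) had an adjusted p of 0.0157 (limma), as 1 of 7 members, where 26.1% of all genes passed and 24.4% were lower. The median of all genes was itself -0.05, and after rescaling by the median of ratios the call was lost (adjusted p = 0.380), while the genes that passed went from 234 higher and 3389 lower to 767 higher and 1042 lower. The call was also lost without mitochondrial genes (0.278), on the deposited values (0.167), with limma voom (0.0522), without ZT8 (0.0746) or ZT16 (0.107) and without replicate 2 (0.0584) or 3 (0.179) of every group. No other member's mean level passed. Zbtb16 stood at 0.31 (adjusted p = 0.140, and 0.0121 without ZT4) and Sgk1 at -0.12 (0.187).

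The wider response was read from 26 other genes that glucocorticoids are known to induce, of which 25 were tested. Under NRF 21 were rhythmic and under DRF 14, where 37.3% and 32.4% of all tested genes were. The rhythm differed between regimens in 18 by clock time and in 18 by feeding time, where 27.7% and 41.5% of all genes did. The 13 rhythmic under both moved by a median of 4.07 h, in a range of 1.24 to 10.2 h, against 3.82 h for all genes. Of the 13, 6 were phase locked (46.2%) and 3 phase inverted (23.1%). These shares were near the 52.0% and 17.7% of all genes rhythmic under both. At single times, 12 of the 25 were higher under DRF at ZT0 and none lower, where 3.03% of all genes were higher. At ZT12, 13 were lower and none higher, where 6.47% of all genes were lower, and at ZT24, 13 were higher and none lower, where 4.43% were higher. The median log2 difference was 0.56 at ZT0, -0.58 at ZT12 and 0.54 at ZT24, against -0.05, -0.06 and 0.00 for all genes. At the other times, 1 was higher at ZT4, 2 were lower at ZT8, 3 were higher and 1 lower at ZT16, and 8 were higher and 1 lower at ZT20, against 0.447%, 0.389%, 6.94% and 14.8% of all genes in either direction.

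The 4 of these genes with the smallest p for a difference in rhythm by clock time were Mt1, Pdk4, Mt2 and Usp2. Mt1 and Mt2 encode metallothioneins, which bind zinc and copper. Their peaks went from ZT14.1 to ZT20.4 and from ZT12.8 to ZT20.9 (limma, adjusted p = 4.19e-13 and 3.46e-10). Pdk4, a kinase that holds back glucose oxidation and also answers to fasting, went from ZT5.15 to ZT21.5 (adjusted p = 2.83e-10). Usp2, a deubiquitinase under clock control, had an amplitude of 0.78 under NRF and 0.13 under DRF, where it was not rhythmic (limma, adjusted p = 0.222). Its rhythm differed by clock time with an adjusted p of 4.60e-09.

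**Figure D4:**
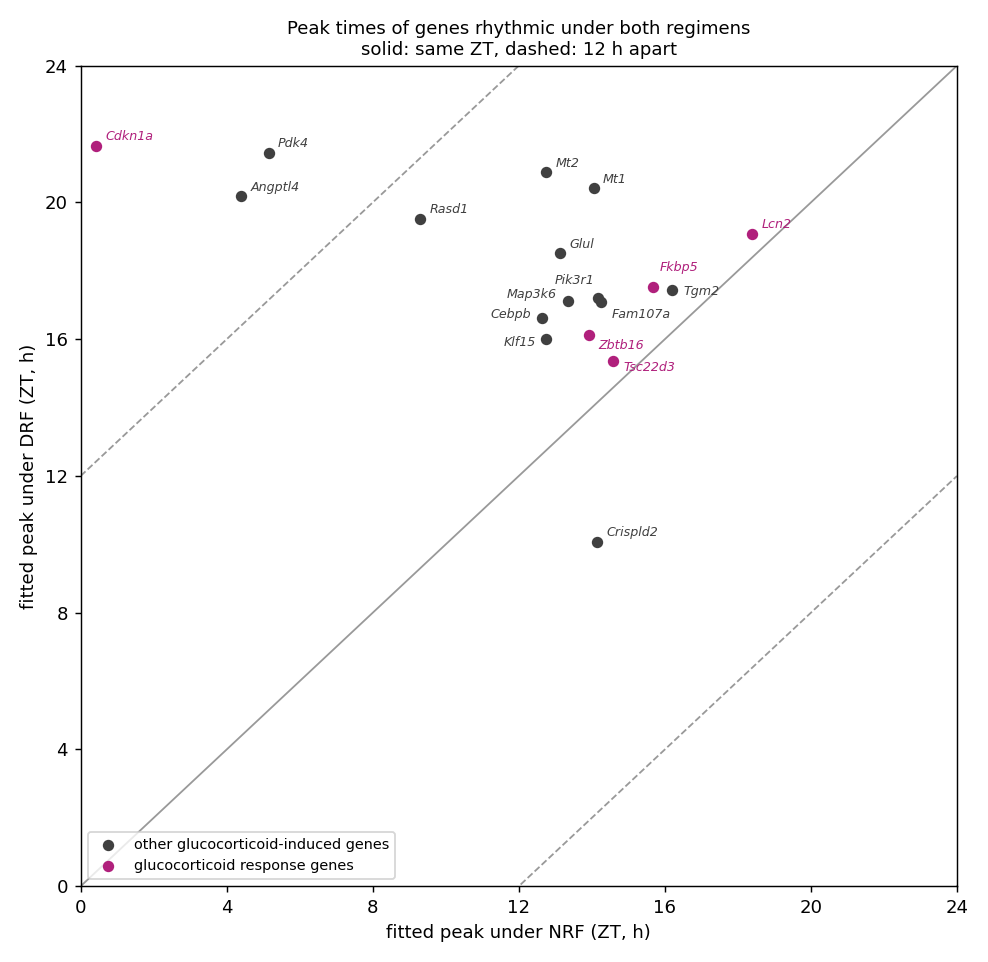
Fitted peak time under NRF (horizontal, ZT in hours) against DRF (vertical) for members (purple) and other glucocorticoid-induced genes (grey) rhythmic under both regimens, with a solid line for the same ZT and dashed lines for 12 h apart. Lcn2, Tsc22d3, Zbtb16 and Fkbp5 lie near the solid line, Cdkn1a lies across lights on from it (ZT0.43 and ZT21.7), and Mt1, Mt2 and Pdk4 lie further off.

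Chaperones and enzymes that serve the receptor were counted beside the receptor gene. Of 17 such genes, 16 were tested, and 12 had a rhythm under NRF, where 37.3% of all genes did. Under DRF 6 had one, near the 32.4% of all genes. The rhythm of 12 differed by clock time, where 27.7% of all genes did. The 5 rhythmic under both moved by a median of 4.95 h, in a range of 0.838 to 11.1 h, against 3.82 h for all genes. Of the 5, 1 was phase locked, where 52.0% of all genes rhythmic under both were. In the phase-inverted range were 2, both named next, where 17.7% of those genes were. Stip1, which hands clients between the HSP70 and HSP90 chaperones, moved by -9.34 h (limma, adjusted p = 1.20e-05), and Fkbp4, the co-chaperone that favours hormone binding, by -11.1 h (0.000519). With an adjusted p of 0.869 by feeding time, Fkbp4 was not shown to differ once hours were counted from the offer of food. Hsp90aa1 had an amplitude of 0.60 under NRF and 0.17 under DRF, with fitted peaks at ZT19.4 and ZT12.5. Its rhythm, in amplitude and peak time together, differed by clock time (limma, adjusted p = 0.000283). H6pd, whose product supplies the cofactor for regenerating active hormone in cells, differed as well (0.000887). In mean level, 2 of the 16 were lower under DRF and none higher, where 24.4% of all genes were lower.

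Cdkn1a and Lcn2 also answer to other signals, and the genes of those signals were counted beside them. Of 11 genes that p53 induces, 10 were tested and 4 were rhythmic under NRF, 2 under DRF and none under both, where 37.3%, 32.4% and 17.7% of all genes were. Their rhythm differed by clock time in 3, near the 27.7% of all genes, namely Aen (adjusted p = 6.38e-05), Ccng1 (0.00673) and Mdm2 (0.00717), the ubiquitin ligase of p53, while Trp53inp1 did not pass (0.0873). Of the 10, 6 had a lower mean level under DRF, where 24.4% of all genes did by TPM. Over all genes this direction depended on scaling, with 3389 lower by TPM and 1042 after rescaling by the median of ratios. Whether it did for these 6 was not tested. Of 10 genes of inflammation, 8 were tested, with 2 rhythmic under NRF and 4 under DRF. By clock time 2 differed, near the 27.7% of all genes, the chemokine Ccl2 (0.00163) and the acute-phase gene Serpina3n (0.0207), unlike Icam1 (0.412) and Socs3 (0.502). Of 8 neutrophil markers, 3 were tested and none differed by clock time. Of 5 adipocyte, 5 blood and 5 atrial markers tested none differed by clock time either. Those that did were 1 of 5 cardiomyocyte markers, Myh6 (0.0499), 2 of 4 endothelial markers, Kdr (0.0209) and Tek (0.0417), and 1 of 4 fibroblast markers, Pdgfra (0.0341), where 27.7% of all genes did.

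The genes whose 14 group means of log2(TPM + 1) most resembled each member's were found by Pearson's r, as a description. Zbtb16 was most like Fam107a (0.969), Rhobtb1 (0.958) and Cdh19 (0.945), and Fkbp5 was most like Nampt (0.947), Cdh19 (0.942) and Mturn (0.940). Tsc22d3 was most like Timp3 (0.948), Rhobtb1 (0.943) and Serinc3 (0.942). Fam107a is itself 1 of the other glucocorticoid-induced genes. Among the members, r was 0.913 for Tsc22d3 with Zbtb16, 0.884 for Fkbp5 with Zbtb16 and 0.807 for Fkbp5 with Tsc22d3. Cdkn1a was most like Inhbb (0.955), Alkal2 (0.945) and Vgll3 (0.909). Sgk1 was most like Ttbk2 (0.907), Kcna5 (0.872) and S1pr1 (0.868), Lcn2 like Ptpn11 (0.921), Olfr1033 (0.915) and Lonrf3 (0.911), and Nr3c1 like Nfatc3 (0.892), Gm2260 (0.890) and Klhl5 (0.885). The points are groups of 4 libraries that share depth and composition, so no p is given.

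The members lie at these places of GRCm38 in the GENCODE M21 annotation, all as protein-coding genes. Fkbp5 (ENSMUSG00000024222) is at chr17:28399094-28517527 and Zbtb16 (ENSMUSG00000066687) at chr9:48654297-48836222, both on the minus strand. Tsc22d3 (ENSMUSG00000031431) is at chrX:140539528-140600659 and Lcn2 (ENSMUSG00000026822) at chr2:32384633-32388252, also on the minus strand. Cdkn1a (ENSMUSG00000023067) is at chr17:29090976-29100727 and Sgk1 (ENSMUSG00000019970) at chr10:21882184-21999903, both on the plus strand. Nr3c1 (ENSMUSG00000024431) is on chromosome 18, and its exon length of 7425 bases was found by search, against 7684 annotated.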

How the data were processed

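The deposited table lists 22864 genes in 56 heart libraries, in values that the authors named TPM. They are not linear TPM but the logarithm of depth-scaled reads divided by exon length, a unit other than the usual ones, which compresses abundant genes. Per the submitters' processing notes, HISAT2 2.0.5 and featureCounts 1.5.0-p3 were used with build mm10. The annotation used, the counting of strand and whether a count is a read or a pair are not given in the sources used here.

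The low values fall on steps, from which whole reads were recovered. Of 1197397 values, 99.9996% came within 0.1 of a whole read, with GENCODE M21 exon lengths for 22015 genes and lengths found by search for 831. For 17 abundant genes the annotated length was kept, and 1 gene was left out. TPM was then recomputed, since the planned tests assume it. No 2 libraries were identical.

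Genes averaging 1 TPM or more were fitted on the log2(TPM + 1) scale, which understates the change of low genes, with limma 3.58.1 (trend) in R 4.3.3. Rhythms were 24-h harmonics, in place of MetaCycle, the study's tool. Single times were contrasts among 14 group means. Recovery and fits were tested on simulated data. Replicate numbers did not pair libraries (28 pairs, correlation of deviations -0.18 to 0.12, with 1 over 0.1), so no block was used.

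The members and all gene lists were chosen with earlier results of these data known. Named are all members, from each other list the up to 4 genes with the smallest p of the rhythm difference by clock time, and for each member the 3 genes with the most similar group means. Marker genes named in passing for reference lists were chosen in the same way. Alternatives covered the pseudocount, the filter, the scaling, the deposited values themselves, limma voom on reads, a block and the omission of libraries or times. Promoters came from RefSeq on GRCm38.p6, without chromosome 18. PCR copies cannot be told from molecules, so read counts understate the error.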

Additional observations from a re-analysis of the deposited data

Results flagged for a closer look

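Single libraries stood far from the other 3 of their group in 6 of 98 groups tested, where chance alone gives about 1 in 20. Zbtb16 at DRF ZT16 was 58.1 TPM in replicate 1 against 32.3 to 34.8 TPM in the others. Cdkn1a at DRF ZT24 was 24.8 TPM in replicate 1 against 39.2 to 41.0 TPM. Sgk1 was 28.3 TPM in DRF ZT4 replicate 1 against 37.0 to 38.2 TPM, and 62.9 TPM in NRF ZT8 replicate 4 against 32.8 to 36.6 TPM. Lcn2 was 4.18 TPM in DRF ZT0 replicate 1 against 2.23 to 2.36 TPM, and 5.51 TPM in NRF ZT20 replicate 3 against 2.80 to 3.27 TPM.

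The rhythm differed between regimens by clock time in Cdkn1a (limma, adjusted p = 0.000485), Tsc22d3 (0.0184), Fkbp5 (0.0292) and Zbtb16 (0.0492), by a test of the difference itself.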

How the results depend on the processing

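No value that passed its test, as reported or under an alternative, changed sign. The number of members that differed in rhythm by feeding time was 5 throughout. Of the 4 that differed by clock time, 1 was left without ZT0, 1 without ZT12, 2 without ZT16, 2 without ZT24, 2 without NRF ZT12 replicate 1 or replicate 3, and 1 to 4 over the omissions of replicates and libraries. The omissions left 4 to 5 members rhythmic under NRF, 3 to 5 under DRF, 12 to 21 food-matched differences in place of 20, 0 to 5 differences at single times in place of 4, 0 to 1 in mean level in place of 1 and 0 between ZT24 and ZT0 as before. Without replicate 1 of all groups 3 members were rhythmic under DRF. Without replicate 2, 0 differences passed at single times and 12 food-matched ones. Without DRF ZT0 replicate 1 or replicate 2, 2 passed at single times. With no filter on low values 2 passed at single times, with more genes tested. The mean-level call of Nr3c1 went to 0 after rescaling by the median of ratios, without mitochondrial genes, on the deposited values, with limma voom, and without ZT8 or ZT16, and to 2 without ZT4. Rescaling by the median of ratios gave 1 difference between ZT24 and ZT0. A replicate block, though the numbers do not pair the libraries, gave 5 members rhythmic under NRF and 5 under DRF, 3 different by clock time (Zbtb16 adjusted p = 0.0519), 5 by feeding time, 1 in mean level, 5 at single times (Tsc22d3 at ZT12, 0.0380), 20 in the food-matched contrasts and 0 between ZT24 and ZT0. Phase shifts ranged from 1.44 to 2.78 h for Fkbp5, 0.0625 to 1.93 h for Tsc22d3, 1.51 to 3.46 h for Zbtb16, -3.27 to -2.10 h for Cdkn1a and 0.261 to 1.41 h for Lcn2. These ranges leave out the fit on the deposited values. Counts over all genes, on which the shares beside the members rest, moved by more than 1.5 times as follows. Of 3623 mean-level calls there were 1809 after rescaling, 1626 without mitochondrial genes, 1899 on the deposited values, 1424 without ZT8 and 1804 without ZT16. Rhythmic genes went from 5178 to 3331 under NRF without ZT12 and from 4498 to 2581 under DRF without ZT16, and differences in rhythm from 3836 to 2397 by clock time without ZT12 and from 5749 to 3795 by feeding time without ZT16. Omitting 1 library moved the counts at single times from 54 to between 4 and 410 at ZT8, from 62 to between 28 and 362 at ZT4, from 1074 to as few as 370 at ZT12, from 962 to 227 at ZT16, from 1568 to 896 at ZT0, from 1233 to 569 at ZT24 and from 2052 to 1165 at ZT20. It moved those of the food-matched contrasts to as few as 1629 of 3344 for DRF ZT20, 1551 of 3178 for DRF ZT16, 407 of 719 for DRF ZT12, 394 of 771 for DRF ZT8, 553 of 898 for DRF ZT4 and 523 of 868 for DRF ZT0, and those of ZT24 against ZT0 to 17 of 65 under DRF and 2 of 8 under NRF. Omitting a replicate number from every group gave as few as 2839 rhythmic genes under NRF and 2302 under DRF, 1836 different by clock time, 3749 by feeding time and 1181 in mean level, with 3 to 321 at ZT8, 16 to 667 at ZT4, 86 to 1957 at ZT12 and as few as 114 at ZT16, 201 at ZT24, 606 at ZT0 and 735 at ZT20. It gave as few as 126, 305, 322, 368, 1286 and 1675 in the food-matched contrasts of DRF ZT8, ZT12, ZT4, ZT0, ZT16 and ZT20, and as few as 2 under DRF and 0 under NRF between ZT24 and ZT0. Rescaling gave 602 at ZT16, 2161 at ZT24, 232 at ZT4, 111 at ZT8, 211 between ZT24 and ZT0 under DRF, and 1460, 1442 and 1178 at DRF ZT4, ZT8 and ZT12 of the food-matched contrasts. Limma voom gave 1964 at ZT24, 155 at ZT4, 252 at ZT8, 116 between ZT24 and ZT0 under DRF, and 1376 and 1088 at DRF ZT8 and ZT12 of the food-matched contrasts. The deposited values gave 429 at ZT16, 149 at ZT4 and 112 between ZT24 and ZT0 under DRF. Fits of 1 time alone gave 1 gene at ZT4, 5 at ZT8, 509 at ZT24, 573 at ZT12 and 858 at ZT0. Without mitochondrial genes there were 29 at ZT8, 5 between ZT24 and ZT0 under NRF and 1879 for DRF ZT20 against NRF ZT8, and with no filter 31 at ZT8. The cause of these moves was not tested. Depth limits Lcn2 most, and 4 libraries a group limit every single time.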
